A study of Mus musculus with 2 samples.

Results

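Ligands and receptors of the transforming growth factor beta (TGF-beta) and bone morphogenetic protein (BMP) systems were followed across the nuclei of 2 mouse heart libraries. They were chosen by symbol, and all 10 members (Tgfb1, Tgfb2, Tgfb3, Bmp4, Bmp6, Ltbp1, Tgfbr1, Tgfbr2, Bmpr2 and Tgfbr3) were found among the 32285 features (32245 symbols) of both libraries. TGF-beta ligands are secreted in a latent complex with their own propeptide and a latent TGF-beta binding protein such as the product of Ltbp1, and they act only once released from it. A dimeric ligand joins type II receptors (TGFBR2, or BMPR2 for BMPs) with type I receptors (TGFBR1 for TGF-beta), which then phosphorylate receptor Smad proteins that enter the nucleus. In the heart TGF-beta is best known as a driver of matrix production by fibroblasts, and BMP signalling for its part in endothelial, endocardial and valve biology.

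The study compared hearts in which the inflammasome sensor NLRP3 is constitutively active in fibroblasts (CF-KI) with control hearts by single-nucleus RNA sequencing on the 10x Genomics 3′ platform. The CF-KI library came from Tcf21-MerCreMer;Nlrp3-A350V/A350V mice and the control library from Tcf21-MerCreMer;Nlrp3-WT/WT mice. Both were tamoxifen-treated males of strain C57Bl6/J at 3.5 months of age, so both carried the fibroblast-directed, tamoxifen-inducible Cre. Per the labels, the mutant Nlrp3 allele stays off where Cre is not active. The number of animals behind a library is not stated. Each genotype has 1 library, so the differences below have no replicate check and no test was made; every interval is a 95% interval that covers counting error alone.

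The libraries held 21603653 UMIs in 15077 barcodes (CF-KI) and 18040776 UMIs in 11257 barcodes (control), and 46 barcode sequences occurred in both. After removal of called doublets and of barcodes with few genes, 12681 CF-KI and 10858 control nuclei were clustered without use of the 10 genes, and 10585 and 10309 of them fell into 10 classes named from markers. In 9 classes every marker was above its library-wide level in both libraries, and in cardiomyocyte-like nuclei 8 of 10 markers were. The libraries differed in quality: the median mitochondrial share per barcode was 14.2% in CF-KI against 3.46% in the control. Free RNA was estimated from cardiomyocyte markers alone, and in the cardiomyocyte classes from markers of other classes. It was also higher in CF-KI in each class, from 17% to 62.6% of UMIs against 8.59% to 39.0% in the control. Fibroblast-like nuclei rest on 3 clusters, of which cluster 1 (2727 CF-KI and 131 control nuclei) and cluster 3 (197 and 2057) divided almost by library. Pericyte-like nuclei also held smooth muscle RNA, with Myh11 at 192 CPM in CF-KI against 202 CPM in the control. Nlrp3, the altered gene, had 6 UMIs in the fibroblast-like nuclei of CF-KI and 0 in those of the control, where 3 UMIs would give 0.726 CPM, and these counts cannot tell the alleles apart. The 6 UMIs are 1.85 CPM (0.677 to 4.02), where all kept CF-KI nuclei together had 2.44 CPM. The part of free RNA in this Nlrp3 count was not tested. Levels are counts scaled to the class total (CPM), taken from the summed UMIs of a gene and all non-mitochondrial UMIs of the class. Where a pair of values is given, CF-KI comes first. Levels are read across classes for 1 gene and not between genes, since the number of reads a gene gives from nuclear RNA differs with its structure.

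The sequences just before the start of transcription are shown for 5 of the genes, so that ligands read in different classes, the latency protein and a receptor can be compared. Each is the 150 bases before a RefSeq start on GRCm38.p6, on the gene's own strand, and 8 of the 10 genes had an entry. The windows are chr7:25686852-25687001 (plus strand) for Tgfb1, chr1:186705990-186706139 (minus) for Tgfb2, chr14:46390670-46390819 (minus) for Bmp4, chr17:75005379-75005528 (plus) for Ltbp1 and chr9:116175364-116175513 (minus) for Tgfbr2. GENCODE vM21 has no exon in these windows except in that of Tgfb2, which overlaps an exon of the antisense gene Gm29491 on the other strand. Capitals mark matches, on either strand, to the GC box GGGCGG, the TATA box TATAAA, the E-box CACGTG, the AP-1 site TGACTCA, the cyclic AMP response element TGACGTCA, the GC-rich BMP response site GGCGCC or the palindromic Smad box GTCTAGAC.
Tgfb1: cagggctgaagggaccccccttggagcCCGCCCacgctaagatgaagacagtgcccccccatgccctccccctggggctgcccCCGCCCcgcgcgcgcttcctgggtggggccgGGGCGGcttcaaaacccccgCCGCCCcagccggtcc
Tgfb2: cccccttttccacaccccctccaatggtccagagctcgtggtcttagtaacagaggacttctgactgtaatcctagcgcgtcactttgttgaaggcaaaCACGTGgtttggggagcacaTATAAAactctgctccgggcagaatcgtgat
Bmp4: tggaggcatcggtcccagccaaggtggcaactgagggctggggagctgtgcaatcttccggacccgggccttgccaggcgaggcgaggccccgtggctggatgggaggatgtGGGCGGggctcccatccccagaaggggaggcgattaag
Ltbp1: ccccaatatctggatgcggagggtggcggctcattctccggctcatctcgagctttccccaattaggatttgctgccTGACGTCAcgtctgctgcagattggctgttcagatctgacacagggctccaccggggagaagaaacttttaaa
Tgfbr2: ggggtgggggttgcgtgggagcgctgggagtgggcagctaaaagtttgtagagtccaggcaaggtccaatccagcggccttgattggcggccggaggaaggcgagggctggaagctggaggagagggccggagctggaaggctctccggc

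Tgfb1 had 4 GC boxes in this window, Bmp4 had 1 and Tgfb2 had none. A GC box was found in 28.6% of the 32851 windows of the same length before all RefSeq starts. The window of Tgfb2 instead held a TATA box, found in 7.57% of all windows, and an E-box, found in 4.30% of them. Ltbp1 held the cyclic AMP response element, found in 1.36% of windows. Another RefSeq start of Ltbp1, with the window chr17:75178631-75178780 (not printed), matched none of the 7 motifs. Tgfbr2 matched none of the 7 motifs. The GC content was 76.0% for Tgfb1, 51.3% for Tgfb2, 68.0% for Bmp4, 54.0% for Ltbp1 and 66.0% for Tgfbr2, against a median of 54.0% over all windows. A match describes the letters and is not evidence that a factor binds there.

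Among the TGF-beta ligands, Tgfb1 (ENSMUSG00000002603; chromosome 7, 25687002 to 25705077, plus strand of GRCm38) reached its highest levels in endothelial, macrophage and endocardial classes. Endothelial-like nuclei had 107 CPM (92.4 to 123) in CF-KI against 124 CPM (104 to 147) in the control, 2.78-fold and 2.99-fold the levels of fibroblast-like nuclei, which were 38.5 and 41.6 CPM. Macrophage-like nuclei had 91.8 CPM in CF-KI against 140.1 CPM in the control, and endocardial-like nuclei 91.2 and 88.7 CPM. Lymphatic endothelial-like nuclei stood highest in both libraries at 133 and 169.9 CPM, but from 20 and 19 UMIs, and did not differ from the next class beyond counting error. At the other end were cardiomyocyte-like nuclei at 9.44 and 5.62 CPM, and mesothelial-like nuclei at 13.9 and 10.5 CPM. Free RNA alone would give 7.75 and 3.77 CPM of Tgfb1 in cardiomyocyte-like nuclei and 15.3 and 9.28 CPM in mesothelial-like nuclei. The counting intervals lay above this level in both libraries in 5 classes, which were fibroblast, endothelial, endocardial, lymphatic endothelial and macrophage.

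Tgfb2 (ENSMUSG00000039239; chromosome 1, 186622792 to 186705989, minus strand) had a different distribution, in which the endothelial class was near the bottom. Endothelial-like nuclei had 27.9 CPM in CF-KI against 19.4 CPM in the control, levels that free RNA alone would reach (29.9 and 23.5 CPM). Fibroblast-like nuclei had 86.8 CPM (76.9 to 97.5) and 98.5 CPM (89.2 to 109), which is 3.11-fold and 5.09-fold the endothelial levels. Mesothelial-like nuclei, the covering layer of the heart, had 94.2 and 122 CPM, and endocardial-like nuclei 63.1 and 95.9 CPM. Cardiomyocyte-like nuclei were the muscle class with a clear signal, at 92.1 CPM (83.2 to 102) in CF-KI against 60.5 CPM (54.2 to 67.2) in the control, where free RNA would give 12.0 and 5.96 CPM. In CF-KI the cardiomyocyte and fibroblast levels did not differ beyond counting error (log2 ratio 0.09, -0.14 to 0.31), while in the control cardiomyocytes were lower (log2 ratio -0.70, -0.92 to -0.49). The control lymphatic endothelial-like nuclei had the highest level, 295 CPM (203 to 414), from 33 UMIs in 99 nuclei, and the same class had 79.6 CPM (41.1 to 139) from 12 UMIs in 158 CF-KI nuclei.

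Tgfb3 (ENSMUSG00000021253; chromosome 12, 86056745 to 86079041, minus strand) was above the free RNA level in both libraries in fibroblast, mesothelial, endothelial and lymphatic endothelial classes. Fibroblast-like nuclei had 43.7 CPM (36.8 to 51.5) in CF-KI against 35.8 CPM (30.3 to 42.1) in the control. Mesothelial-like nuclei had 67.9 CPM (49.3 to 91.2) and 40.7 CPM (28.4 to 56.6), above fibroblasts in CF-KI (log2 ratio 0.64, 0.11 to 1.13) and within counting error of them in the control (0.19, -0.39 to 0.73). Lymphatic endothelial-like nuclei had 39.8 CPM (14.6 to 86.6) and 62.6 CPM (25.2 to 129) from 6 and 7 UMIs, the highest class of the control, and endothelial-like nuclei 14.5 and 15.7 CPM. Cardiomyocyte-like nuclei were at the level of free RNA, with 2.36 and 1.41 CPM against 3.11 and 1.40 CPM. Endocardial-like nuclei had 3.88 and 8.07 CPM, 11.3-fold and 4.44-fold below fibroblasts. Thus the endocardial class had Tgfb1 and Tgfb2 above the free RNA level in both libraries, but not Tgfb3. The gene overlaps Ttll5 on the other strand, which had 480 UMIs in both libraries together, so where the counting did not use strand the reads of the pair cannot be told apart.

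Bmp4 (ENSMUSG00000021835; chromosome 14, 46383520 to 46390669, minus strand), which signals in cardiac development and in vessel walls, was read in fibroblasts, the endocardium and the mesothelium. Fibroblast-like nuclei had 101 CPM (90.6 to 113) in CF-KI against 121 CPM (110.2 to 132) in the control. Endocardial-like nuclei, which line the chambers, had 73.8 CPM (58.1 to 92.3) and 137 CPM (116 to 161). Mesothelial-like nuclei had 67.9 and 79.1 CPM. Endothelial-like nuclei were low at 25.6 and 23.0 CPM, so that the endocardial level was 2.88-fold the endothelial level in CF-KI against 5.95-fold in the control. These were the 3 classes whose intervals lay above the free RNA level in both libraries. The antisense gene Gm15222, with 321 UMIs in both libraries, overlaps Bmp4 and shares the limit given for Tgfb3.

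Bmp6 (ENSMUSG00000039004; chromosome 13, 38345107 to 38500302, plus strand), known as the endothelial ligand that sets hepcidin in the liver, was highest in endocardial-like nuclei at 97.1 CPM (79.0 to 118) in CF-KI against 108 CPM (89.2 to 129) in the control. Endothelial-like nuclei followed at 85.2 and 99.5 CPM, within counting error of the endocardium. Both exceeded fibroblast-like nuclei, which had 45.8 and 48.6 CPM. Lymphatic endothelial-like nuclei had 2 UMIs (13.3 CPM) and 4 UMIs (35.8 CPM), and the endothelial level was 6.42-fold theirs in CF-KI (log2 interval 0.81 to 5.74) and 2.78-fold in the control (0.08 to 3.38). Mesothelial-like nuclei were at 13.9 and 16.3 CPM. The endocardial class thus had both Bmp4 and Bmp6 above the free RNA level in both libraries. The endothelial class had Bmp6 above it in both, and Bmp4 above it in CF-KI but not in the control (17.7 CPM from free RNA against an interval of 14.9 to 34.0). Txndc5, on the other strand from Bmp6 and overlapping it, had 1467 UMIs.

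Ltbp1 (ENSMUSG00000001870; chromosome 17, 75005568 to 75392512, plus strand), which tethers latent TGF-beta to the matrix, was highest in fibroblast-like nuclei in both libraries. They had 92.9 CPM (82.7 to 104) in CF-KI against 127 CPM (116 to 138) in the control, and in both libraries the next class, the endocardium, was lower beyond counting error, at 68.9 and 83.4 CPM. Endothelial-like nuclei had 46.8 and 32.3 CPM and cardiomyocyte-like nuclei 25.7 and 20.03 CPM. In mesothelial-like nuclei, where Tgfb2 and Tgfb3 were clear, Ltbp1 had 20.1 and 18.6 CPM against 16.4 and 11.2 CPM from free RNA alone. Macrophage-like nuclei, among the classes with a high level of Tgfb1, had 23.3 and 27.5 CPM, where free RNA would give 30.6 and 18.2 CPM.

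Tgfbr1 (ENSMUSG00000007613; chromosome 4, 47353222 to 47414931, plus strand), the type I kinase for TGF-beta, was highest in macrophage-like nuclei, at 120.0 CPM (97.4 to 146) in CF-KI against 114 CPM (94.7 to 135) in the control. Fibroblast-like nuclei came next at 81.2 and 79.6 CPM, lower beyond counting error in both libraries. Endocardial-like nuclei had 76.7 and 57.4 CPM, while endothelial-like nuclei had 32.3 and 40.6 CPM, 3.71-fold and 2.80-fold below macrophages. Cardiomyocyte-like nuclei had 28.6 CPM (23.7 to 34.1) and 23.0 CPM (19.2 to 27.3), above the 8.48 and 4.29 CPM of free RNA.

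Tgfbr2 (ENSMUSG00000032440; chromosome 9, 116084293 to 116175360, minus strand), the type II receptor that binds TGF-beta, was highest in lymphatic endothelial-like nuclei, at 332 CPM (246 to 437) in CF-KI against 394 CPM (286 to 528) in the control. These levels were 1.87-fold and 2.19-fold those of fibroblast-like nuclei, 178 and 179 CPM. Endothelial-like nuclei had 98.1 and 97.7 CPM, so lymphatic nuclei were 3.38-fold and 4.03-fold above them. Cardiomyocyte-like nuclei were lowest, at 20.1 CPM (16.0 to 24.8) and 14.1 CPM (11.1 to 17.5), and free RNA alone would give 17.7 and 7.93 CPM. In CF-KI the cardiomyocyte interval includes that level, and in the control it does not.

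Bmpr2 (ENSMUSG00000067336; chromosome 1, 59763400 to 59879014, plus strand), the type II BMP receptor whose loss causes pulmonary arterial hypertension, was highest in the vascular lining. Endothelial-like nuclei had 275 CPM in both libraries (251 to 300.01 for CF-KI, 244 to 308 for the control). Endocardial-like nuclei had 272 CPM (241 to 306) and 352 CPM (318 to 389), and fibroblast-like nuclei 175 and 157 CPM. Cardiomyocyte-like nuclei had 45.3 and 36.2 CPM, 6.06-fold and 7.59-fold below the endothelium. The level was above that of free RNA in both libraries in 8 of 10 classes, the most of the 10 genes.

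Tgfbr3 (ENSMUSG00000029287; chromosome 5, 107106570 to 107289629, minus strand), the co-receptor betaglycan that presents TGF-beta2 to the signalling receptors, was highest in fibroblast-like nuclei. They had 141 CPM (128 to 154) in CF-KI against 174 CPM (162 to 188) in the control. In the control the next class, mesothelial-like nuclei at 65.2 CPM, was lower beyond counting error. In CF-KI the intervals of lymphatic endothelial-like (113 CPM, 65.7 to 181) and pericyte-like nuclei (110.3 CPM, 72.7 to 161) included the fibroblast level. Cardiomyocyte-like nuclei had 37.3 and 27.9 CPM against 13.1 and 6.29 CPM from free RNA. Macrophage-like nuclei were at the free RNA level in both libraries, with 52.6 CPM against 48.2 CPM in CF-KI against 25.7 CPM against 25.0 CPM in the control.

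**Figure D1:**
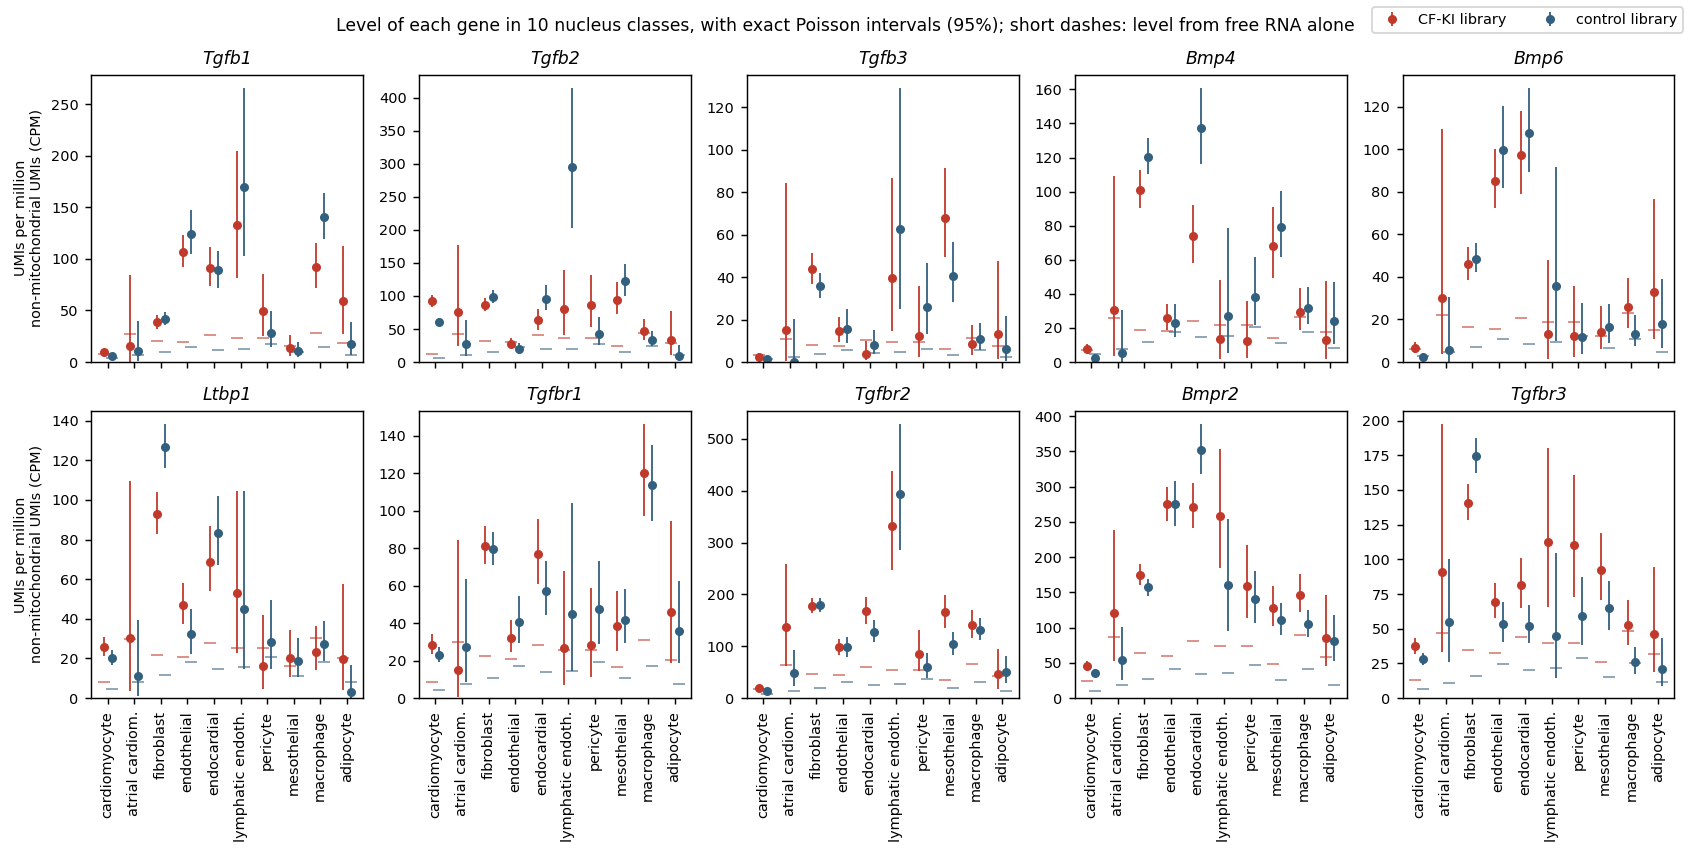
Level of each of the 10 genes (CPM, vertical axis from 0) in 10 nucleus classes for the CF-KI library (red) and the control library (blue). Points are class sums, bars are 95% exact Poisson intervals, and short dashes mark the level that free RNA alone would give; the highest class was the same in both libraries for 6 of the 10 genes.

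The class of highest level was the same in both libraries for 6 of the 10 genes: Tgfb1, Tgfbr1, Tgfbr2, Tgfbr3, Bmp6 and Ltbp1. For the other 4 the leading class changed, from mesothelial to lymphatic endothelial for Tgfb2 and Tgfb3, from fibroblast to endocardial for Bmp4 and from endothelial to endocardial for Bmpr2, in each case naming CF-KI first. In 1 library of each of these 4 genes the leader exceeded the next class beyond counting error: CF-KI for Tgfb3 and Bmp4, the control for Tgfb2 and Bmpr2. The highest class exceeded the next beyond counting error for 5 genes in CF-KI against 6 in the control. Across the 10 classes the log2 levels of the libraries correlated least for Tgfb3 (Pearson 0.64) and most for Tgfb1 (0.93). These correlations have 10 points each and are given as a description. All points of a library come from that 1 library, and depth and free RNA differ between its classes. The plot of levels by class shows these patterns side by side. Among them are the endothelial and macrophage levels of Tgfb1 and the low cardiomyocyte levels of Tgfbr2 and Bmpr2. For Tgfb2 they are the mesothelial, fibroblast and cardiomyocyte levels, and in the control the lymphatic endothelial and endocardial levels as well.

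Set by class, the members above the free RNA level in both libraries differed. The same rule was met by a share of the 7898 genes whose UMIs summed over the libraries reached 500, given in parentheses. Fibroblast-like nuclei had all 10 members (89.2% of genes), endocardial-like nuclei 9, all but Tgfb3 (78.3%), and endothelial-like nuclei 8, all but Tgfb2 and Bmp4 (77.3%). Mesothelial-like nuclei had 7: Tgfb2, Tgfb3, Bmp4, Tgfbr1, Tgfbr2, Tgfbr3 and Bmpr2 (82.7%). Cardiomyocyte-like nuclei had 5: Tgfb2, Tgfbr1, Tgfbr3, Bmpr2 and Ltbp1 (86.5%). Lymphatic endothelial-like nuclei also had 5: Tgfb1, Tgfb2, Tgfb3, Tgfbr2 and Bmpr2 (38.1%). Macrophage-like nuclei had 4: Tgfb1, Tgfbr1, Tgfbr2 and Bmpr2 (63.2%). Pericyte-like nuclei had 2, Tgfbr3 and Bmpr2 (47.2%), and the atrial cardiomyocyte-like (12.5%) and adipocyte-like nuclei (42%) had none.

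The libraries were then compared gene by gene, first over all kept nuclei. Bmpr2 had 143 CPM in CF-KI against 121 CPM in the control (log2 ratio 0.23, 0.14 to 0.33), Tgfbr2 104 and 92.4 CPM (0.17, 0.07 to 0.28) and Bmp6 36.5 and 31.5 CPM (0.21, 0.03 to 0.40). Bmp4 was the gene with an interval below 0, at 42.7 and 52.1 CPM (-0.29, -0.44 to -0.13). For the other 6 genes the interval of the whole-library ratio included 0. In nuclei, a level of the whole library moves with the make-up of classes as well as with the level in each class, so the classes are given next.

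In fibroblast-like nuclei, the class at which the Tcf21 driver is aimed, no member passed 1.5-fold in either direction. Among all 10767 genes with at least 50 UMIs in this class, 9.74% were higher in CF-KI by 1.5-fold or more, while 7.71% were lower by as much. The median log2 ratio was -0.098 for the 10 genes and -0.031 for all genes. Tgfb1 (38.5 and 41.6 CPM; log2 ratio -0.11, -0.46 to 0.23), Tgfbr1 (81.2 and 79.6; 0.03, -0.21 to 0.27) and Tgfbr2 (178 and 179; -0.01, -0.17 to 0.15) had intervals that included 0. For Tgfbr2 this interval stays well under 1.5-fold, but it covers counting error alone and holds for the summed class. Within the 2 kinds of fibroblast cluster described below, the Tgfbr2 ratio was 0.35 (0.09 to 0.61) in the Msc-led nuclei. In the Pi16-led nuclei it was 0.09 (-0.13 to 0.30). For 3 genes the interval lay below 0. Ltbp1 had 302 and 524 UMIs, or 92.9 and 127 CPM (-0.45, -0.66 to -0.24), Tgfbr3 had 141 and 174 CPM (-0.31, -0.48 to -0.14) and Bmp4 101 and 121 CPM (-0.25, -0.46 to -0.05). Free RNA was 44.7% in CF-KI against 22.0% in the control for this class. With it subtracted, the log2 ratio was -0.20 for Ltbp1, -0.08 for Tgfbr3 and 0.09 for Bmp4. At a mitochondrial limit of 5%, which leaves 53 CF-KI fibroblast-like nuclei, Ltbp1 turned to 0.37 and Tgfbr3 to 0.02.

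The fibroblast class held 2 kinds of cluster. In both libraries 7 of 10 members were higher in one kind and 1 lower, with intervals off 0, where 13.8% of 8085 genes were higher and 7.26% lower in the same way. These shares are over genes with at least 50 UMIs in each library, and genes used in the clustering are among them. Cluster 4, led by Cilp and Pi16, had 790 CF-KI and 1387 control nuclei. Clusters 1 and 3, led by Msc and Rgs17, had 2924 and 2188. Tgfbr2 had 253 and 239 CPM in the Pi16-led cluster against 142 and 111 CPM in the Msc-led clusters, 1.79-fold and 2.14-fold. Ltbp1 had 132 and 169 CPM against 74.2 and 78.5 CPM, 1.78-fold and 2.15-fold, and Tgfbr3 199 and 231 CPM against 113 and 109.7 CPM, 1.77-fold and 2.10-fold. Tgfb1, Tgfb2, Bmp6 and Bmpr2 were also higher in the Pi16-led cluster in both libraries, with intervals above 0. Bmp4 was lower there, at 79.8 and 109.5 CPM against 112 and 133 CPM (log2 ratio -0.48, -0.86 to -0.12, and -0.28, -0.54 to -0.02). Tgfbr1 and Tgfb3 did not differ in the same way in both libraries. These nuclei differ in depth too, with a median of 1441 UMIs in cluster 4 and of 849 and 873 UMIs in clusters 1 and 3, and its part in these differences was not tested. The genes were left out of the clustering, so their levels did not define the clusters.

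Because the Pi16-led cluster gave 32.4% of the fibroblast UMIs in CF-KI against 53.5% in the control, the ratios of the class were also taken within each kind. For Tgfbr3 the log2 ratio of CF-KI over control was 0.04 (-0.23 to 0.31) in the Msc-led and -0.21 (-0.45 to 0.02) in the Pi16-led nuclei, and both intervals included 0. For Ltbp1 it was -0.08 (-0.41 to 0.25) and -0.36 (-0.65 to -0.07), so the lower level remained beyond counting error in the Pi16-led nuclei. Bmp4 had -0.26 (-0.51 to 0.0029) and -0.46 (-0.83 to -0.09), and it too was lower beyond counting error in the Pi16-led nuclei. In the Msc-led nuclei Bmp6 (39.1 and 24.4 CPM; 0.68, 0.15 to 1.22), Tgfb3 (42.8 and 28.6 CPM; 0.58, 0.09 to 1.09), Tgfbr2 (142 and 111 CPM; 0.35, 0.09 to 0.61) and Bmpr2 (142 and 117 CPM; 0.28, 0.03 to 0.53) were higher in CF-KI. Here clusters 1 and 3 divide almost by library, so this compares nuclei of unlike clusters. Bmpr2 was higher within the Pi16-led cluster as well, at 243 and 192 CPM (0.34, 0.11 to 0.57).

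**Figure D2:**
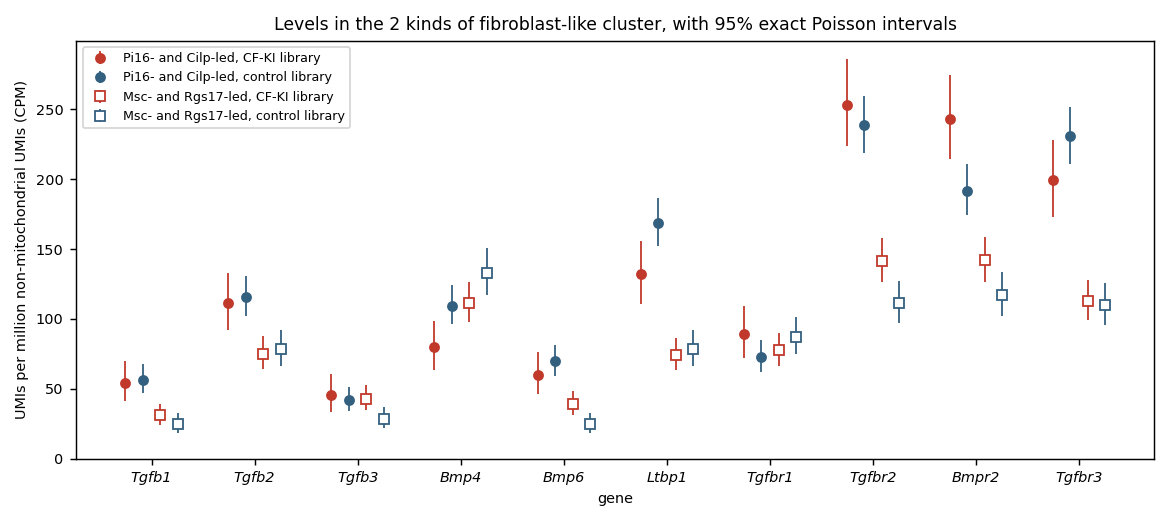
Level of each gene (CPM, vertical axis from 0) in the Pi16- and Cilp-led cluster (filled circles) and the Msc- and Rgs17-led clusters (open squares) of fibroblast-like nuclei, in the CF-KI (red) and control (blue) libraries, with 95% exact Poisson intervals. Tgfbr2, Tgfbr3, Bmpr2 and Ltbp1 lie higher in the Pi16-led nuclei of both libraries, and Bmp4 lies lower.

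The cardiomyocyte-like class kept 2341 CF-KI and 2175 control nuclei. A cluster with cardiomyocyte markers and a median mitochondrial share of 64.0% was left out of it, unequally by library, with 1842 CF-KI and 255 control barcodes. In cardiomyocyte-like nuclei, 7 members had at least 50 UMIs, and all 7 had a log2 ratio above 0. This must be read against the class, in which 61.9% of all 9720 genes did. Of the 7, Tgfb1 and Tgfb2 (2 genes) were at least 1.5-fold higher in CF-KI, as were 20.7% of all genes, and none was 1.5-fold lower, against 6.49% of all genes. The median was 0.42 for the members and 0.14 for all genes. TMM scaling lowers every ratio of this class by 0.16, which leaves all 7 above 0 but puts Tgfb2 at 0.44, short of 1.5-fold, and Tgfb1 at 0.58 (with 0.5 UMI added), at the limit of 1.5-fold. Median-of-ratios scaling moves the ratios by -0.20, and Tgfb1 and Tgfb2 are then both short of 1.5-fold. Tgfb2 had the narrowest interval of the pair, at 92.1 CPM from 390 UMIs in CF-KI against 60.5 CPM from 344 UMIs in the control (log2 ratio 0.61, 0.39 to 0.82). Its ratio was 0.69 with free RNA subtracted and 0.47 at a mitochondrial limit of 5%, which keeps 1641 CF-KI and 2119 control nuclei of this class. Tgfb1 rested on 40 and 32 UMIs (0.75, 0.04 to 1.47) and was 0.04 after free RNA was subtracted. Tgfbr3 (37.3 and 27.9 CPM; 0.42, 0.09 to 0.74), Bmpr2 (45.3 and 36.2 CPM; 0.32, 0.03 to 0.62) and Tgfbr2 (20.1 and 14.1 CPM; 0.51, 0.06 to 0.97) also had intervals above 0. Of these, Bmpr2 turned to -0.15 and Tgfbr2 to -1.19 with free RNA subtracted. Free RNA was 17% against 8.59%.

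In endothelial-like nuclei, of 9 measured members none passed 1.5-fold, against 7.16% of 7518 genes higher and 10.4% lower, and all 9 intervals included 0. The widest interval still reached 1.33 (Tgfb2, 50 and 21 UMIs), so differences of that size could not be seen for the low genes. For Bmpr2, with 493 and 298 UMIs, the interval was -0.21 to 0.21. This class is made of clusters 7 and 9, with 907 CF-KI and 433 control nuclei in the first and 561 and 477 in the second.

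In endocardial-like nuclei 1 of 9 members was at least 1.5-fold higher (Tgfbr3) and 2 were lower (Tgfb2 and Bmp4), where 12.9% of 6795 genes were higher and 9.55% lower. Bmp4 had 76 and 153 UMIs, or 73.8 and 137 CPM, the largest difference among the 9 measured genes of this class (log2 ratio -0.89, -1.31 to -0.49). Tgfb2 had 63.1 and 95.9 CPM (-0.60, -1.07 to -0.15). Its 65 UMIs in CF-KI came from 58 nuclei (4.13%) with at most 3 in 1 nucleus, and its 107 UMIs in the control from 55 nuclei (4.82%) with 13 in 1 nucleus, so the share of nuclei with a UMI was similar. Bmpr2 had 272 and 352 CPM (-0.37, -0.60 to -0.15). The TGF-beta receptors went the other way: Tgfbr3 had 81.5 and 52.0 CPM (0.65, 0.15 to 1.16) and Tgfbr2 168 and 128 CPM (0.39, 0.06 to 0.72). With free RNA subtracted (56.9% in CF-KI against 27.7% in the control) the values were -0.56 for Bmp4, -0.98 for Tgfb2, 0.01 for Bmpr2, 0.99 for Tgfbr3 and 0.83 for Tgfbr2. At a mitochondrial limit of 5%, which leaves 29 CF-KI nuclei of this class, Bmp4 turned to 0.38, Tgfb2 to 0.74 and Bmpr2 to 0.20. When each nucleus was thinned to 500 UMIs, Tgfb2 had -0.05 and Bmp4 -0.50.

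Macrophage-like nuclei had 1 of 8 members at least 1.5-fold higher and 1 lower, near the 13.2% and 13.5% of 6678 genes. The lower one was Tgfb1, with 75 and 158 UMIs, or 91.8 and 140.1 CPM (log2 ratio -0.61, -1.03 to -0.20). It was -0.16 with free RNA subtracted, free RNA was 62.6% and 34.2%, and all 9 macrophage markers were lower in CF-KI as well (median -0.95). The higher one was Tgfbr3 (1.03, 0.32 to 1.76), whose level was that of free RNA in both libraries. Bmpr2 had 147 and 105 CPM (0.49, 0.11 to 0.87), and 0.02 at a mitochondrial limit of 5% with 28 CF-KI nuclei. Tgfbr1 and Tgfbr2, the receptors through which macrophages receive TGF-beta, had intervals of -0.32 to 0.47 and -0.27 to 0.45.

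Mesothelial-like nuclei had 2 of 7 members at least 1.5-fold higher and none lower, against 15.9% and 8.89% of 5274 genes. Tgfbr2 had 107 UMIs and 89 UMIs, 165 and 104 CPM (log2 ratio 0.67, 0.25 to 1.10), and Tgfb3 44 and 35 UMIs, 67.9 and 40.7 CPM (0.74, 0.06 to 1.42). With free RNA subtracted they were 0.88 and 0.97. Pericyte-like nuclei had 2 measured members, of which Tgfbr3 was higher (110.3 and 59.3 CPM; 0.90, 0.06 to 1.74), where 27.9% of 2400 genes were at least 1.5-fold higher. TMM lowers the ratios of this class by 0.20. In lymphatic endothelial-like nuclei Tgfbr2 and Bmpr2 were measured. Bmpr2 was 1 of 2 past 1.5-fold, where 22.2% of 853 genes were higher, on 39 and 18 UMIs (259 and 161 CPM; 0.68, -0.16 to 1.58), and both intervals included 0. Tgfb2 fell short of 50 UMIs there, but its 12 and 33 UMIs gave a log2 ratio of -1.89 (-2.98 to -0.90). No member reached 50 UMIs in atrial cardiomyocyte-like nuclei, where 40.5% of the 536 genes measured were at least 1.5-fold higher in CF-KI, or in adipocyte-like nuclei.

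**Figure D3:**
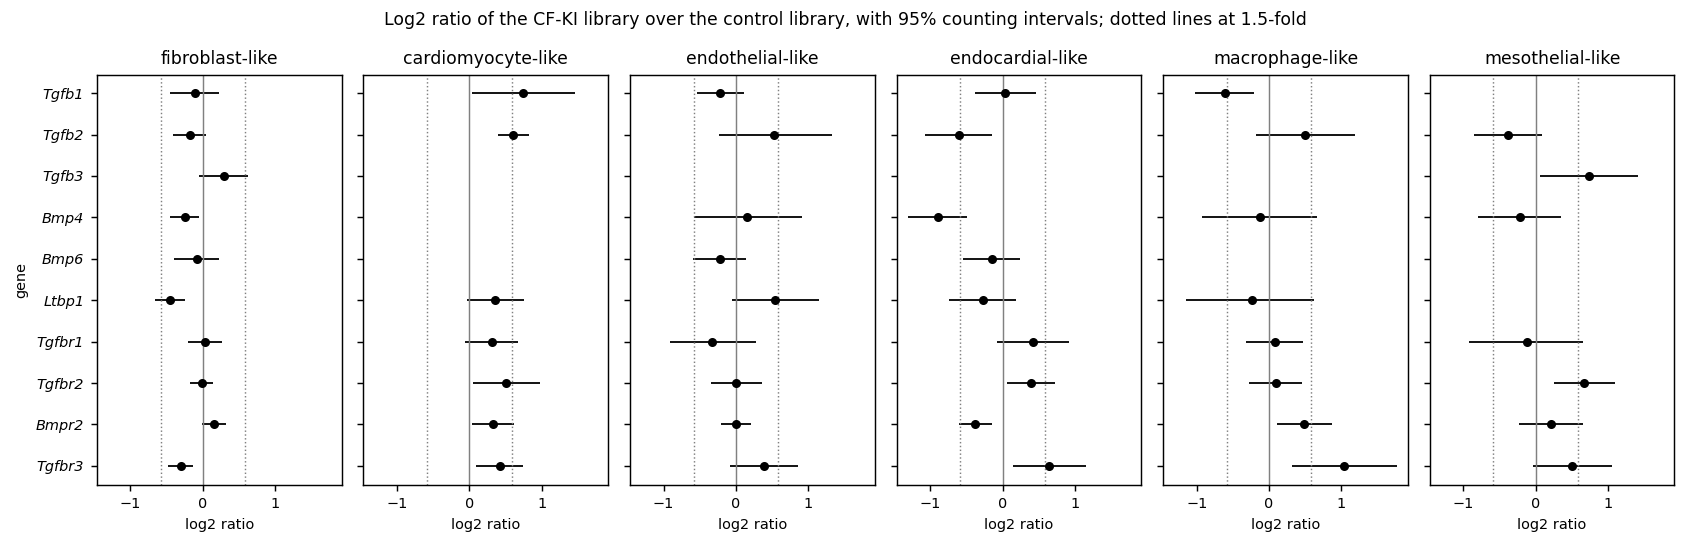
Log2 ratio of the CF-KI library over the control library (horizontal axis) for each gene with at least 50 UMIs in 6 nucleus classes. Points are ratios of CPM, bars are 95% conditional exact intervals for counting error, and dotted lines mark 1.5-fold; in fibroblast-like nuclei all 10 points lie between the dotted lines, and in cardiomyocyte-like nuclei all 7 points lie to the right of 0.

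The rest of the pathway was read from 7 lists. Latency and activation genes, which hold TGF-beta in the matrix or release it, had 13 of 15 genes measured in fibroblast-like nuclei, with 4 lower by 1.5-fold and none higher, and a median of -0.40, where 7.71% of all genes of the class were lower and 9.74% higher. The class's own markers moved the same way: 10 of 11 were lower in CF-KI, with a median log2 ratio of -0.46, free RNA was 44.7% against 22.0%, and the Pi16-led share of UMIs 32.4% against 53.5%. Their part in the values of this and the other lists in fibroblast-like nuclei was not tested. Ltbp4, the most abundant of them in UMIs, had 884 CPM in CF-KI against 1410.1 CPM in the control (log2 ratio -0.67, -0.74 to -0.61), and Ltbp2 15.7 and 40.9 CPM (-1.38, -1.86 to -0.92). Ltbp1 had the same direction as these relatives. Extracellular antagonists had 10 of 18 genes measured, 2 lower and none higher (7.71% and 9.74% of all genes), with a median of -0.43, and Dcn, the small proteoglycan decorin that binds TGF-beta, was the lowest at 7724 and 11904 CPM (-0.62, -0.65 to -0.60). In cardiomyocyte-like nuclei 5 of 5 measured genes of the same list were at least 1.5-fold higher, as were 20.7% of all genes, with Dcn at 719 and 320 CPM (1.17, 1.09 to 1.25). Dcn is also a fibroblast gene, and the estimated free RNA in cardiomyocyte-like nuclei was 17% against 8.59%. Its part in this difference was not tested.

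Receptors and co-receptors outside the 10 genes had 11 of 14 measured in fibroblast-like nuclei, 1 higher and 1 lower, with a median of 0.05. Of all genes in fibroblast-like nuclei, 9.74% were higher by 1.5-fold and 7.71% lower. Eng, the endothelial co-receptor endoglin, had 185 and 160 CPM there (log2 ratio 0.21, 0.05 to 0.37). In endothelial-like nuclei it had 603 and 725 CPM (-0.27, -0.40 to -0.13). There 2 of 8 genes of the list were higher and 1 lower, against 7.16% and 10.4% of all genes. In cardiomyocyte-like nuclei 3 of 11 were higher and 1 lower, against 20.7% and 6.49% of all genes. The type I BMP receptor Bmpr1a had 60.4 and 37.6 CPM in cardiomyocyte-like nuclei (0.68, 0.42 to 0.95). The type II activin receptor Acvr2b was the lowest of its list in 3 classes, at -0.98 in cardiomyocyte-like, -1.05 in fibroblast-like and -1.14 in endothelial-like nuclei, from 23 to 30 UMIs for CF-KI and 36 to 79 UMIs for the control. At the other end of the list, Hjv, the co-receptor hemojuvelin, had 21.2 and 6.29 CPM in fibroblast-like nuclei (1.75, 1.08 to 2.46). In endothelial-like nuclei it had 24.0 and 7.37 CPM from 43 and 8 UMIs (1.70, 0.59 to 3.0). Acvrl1, the type I receptor ALK1, had 12.5 and 4.22 CPM from 53 and 24 UMIs in cardiomyocyte-like nuclei (1.57, 0.85 to 2.33). Free RNA was 42.3% against 33.9% in endothelial-like and 17% against 8.59% in cardiomyocyte-like nuclei. Its part in the Hjv and Acvrl1 ratios was not tested. Other ligands of the superfamily were sparse: 6 of 28 were measured in fibroblast-like nuclei and none passed 1.5-fold, with Inhba, an activin subunit, at 45.5 and 42.3 CPM (0.10, -0.22 to 0.43).

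Downstream, the Smads and intracellular regulators had 14 of 15 genes measured in fibroblast-like nuclei, 1 higher and 1 lower, with a median of -0.21. For this and the 2 target lists of the class, the shares over all genes were 9.74% higher and 7.71% lower. Smad2, a receptor Smad of the TGF-beta arm, had 62.5 and 36.8 CPM (log2 ratio 0.76, 0.45 to 1.08). Pmepa1, a TGF-beta target that restrains the pathway, had 204 and 347 CPM (-0.76, -0.90 to -0.63). TGF-beta target genes had 12 of 12 measured, 1 higher and 3 lower, with a median of -0.33. Col1a2, a collagen I chain gene, had 1053 and 1593 CPM (-0.60, -0.66 to -0.54). BMP target genes had 6 of 10 measured and none passed 1.5-fold, with a median of 0.01 and Id1 at 65.8 and 46.5 CPM (0.50, 0.21 to 0.79). In macrophage-like nuclei 2 of 4 measured BMP target genes were higher by 1.5-fold, as were 13.2% of all genes, Id1 with 119 and 69.2 CPM (0.78, 0.33 to 1.23), while Nrros, which anchors latent TGF-beta on macrophages, had 58.8 and 163 CPM (-1.47, -1.96 to -1.01). Free RNA of this class was 62.6% against 34.2%, and all 9 of its markers were lower in CF-KI (median log2 ratio -0.95); the part of either in these values was not tested. In endothelial-like nuclei Id1 had 1085 and 1335 CPM (-0.30, -0.40 to -0.20) and Smad7, an inhibitory Smad, 302 and 379 CPM (-0.33, -0.51 to -0.14). Skil, Pmepa1, Ltbp2, Smad6, Smad7, Smad9 and Bambi stand on more than one list and were counted in each.

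**Figure D4:**
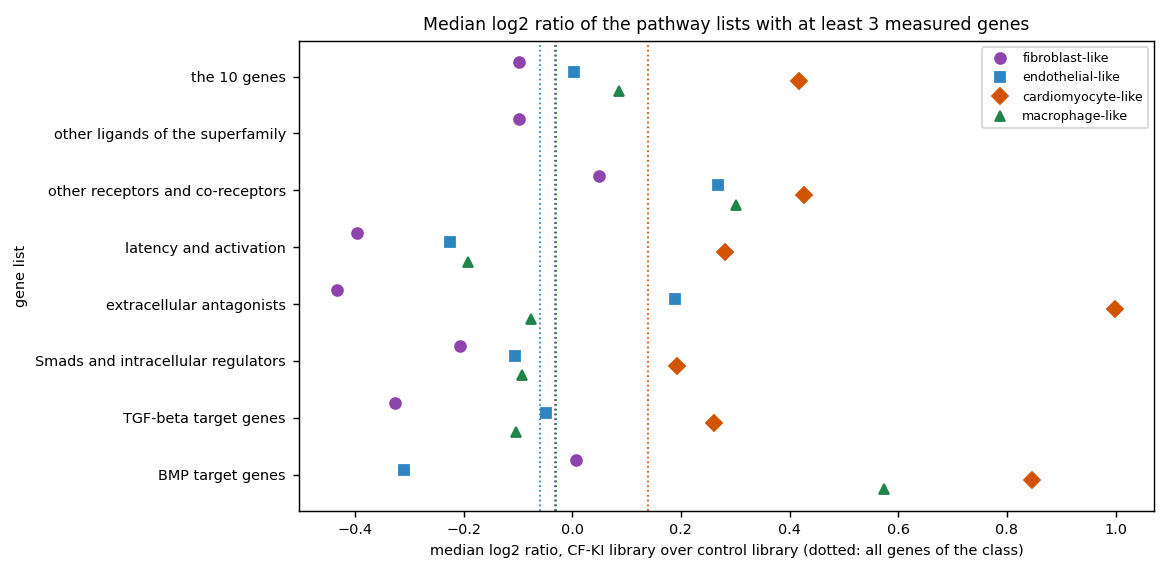
Median log2 ratio of the CF-KI over the control library (horizontal axis) for the 10 genes and for the pathway lists (vertical axis) in 4 nucleus classes, shown where at least 3 genes were measured; dotted lines mark the median of all genes of each class. In fibroblast-like nuclei the lists of latency genes and antagonists lie at -0.40 and -0.43, and in cardiomyocyte-like nuclei the antagonists lie at 1.00.

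Genes whose levels followed those of a member most closely were found over 20 points (10 classes in 2 libraries) among 10842 genes. The points share libraries, and all correlations are descriptions. For each member the 3 closest genes are named. Tgfb1 was closest to Lmo2 and Elk3 (both 0.92) and Ier2 (0.90). Tgfb2 had the weakest nearest gene, Kremen1 (0.78), followed by Gm29994 (0.76) and Stc2 (0.75). Tgfb3 was closest to Col16a1 (0.89), Rap2a (0.88) and Fam91a1 (0.87). For the BMP ligands the genes were Col4a4 (0.92), Casp12 (0.91) and Kcnt2 (0.91) with Bmp4, and Eng (0.89), Tek (0.88) and Atp1b3 (0.87) with Bmp6. Eng, the endoglin gene, is on the receptor list above. Ltbp1 was closest to Tmem100 (0.86), Ackr3 (0.84) and Itga5 (0.83). For the receptors the genes were Crlf3 (0.92), Sh3bp2 (0.88) and Vrk2 (0.87) with Tgfbr1, Add3 (0.96), Vim (0.92) and Rtn4 (0.92) with Tgfbr2, Cpd (0.96), Osmr (0.95) and Ece1 (0.94) with Bmpr2, and Calu (0.87), Maged2 (0.85) and Sdc2 (0.84) with Tgfbr3. Among the 10 genes themselves, Bmp6 and Bmpr2 were most alike (0.83), followed by Tgfb1 and Bmpr2 (0.76), and the 3 lowest values were those of Tgfb2 with Bmp6 (0.00043), Tgfbr1 (0.015) and Tgfb1 (0.022).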

How the data were processed

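Single-nucleus libraries were counted with Cell Ranger 6.1.1, per the file headers and the submitters' processing notes, which also name the mm10 build; whether introns and strand were used is not given in the sources used here. The deposited values are raw UMI counts per feature and barcode, 21603653 in 15077 CF-KI barcodes and 18040776 in 11257 control barcodes, with no normalization by the authors. Depth gives each value the exact Poisson interval (95%) printed with it; reads are collapsed to UMIs, and intervals and floors (3 UMIs for a count of 0) cover counting error only.

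The members and lists were chosen with earlier results of these data known. Barcodes with under 200 genes (110 in CF-KI, 61 in the control) and Scrublet doublets (2286, or 15.2%, against 12.1% preset; 338, or 3.00%, against 9.01% preset) were removed. Both libraries were clustered together (scanpy 1.11.5, leidenalg 0.10.2; 2000 variable genes without the members, pathway genes, mitochondrial or ribosomal genes; 30 principal components, 15 neighbours, Leiden resolution 0.8). Clusters were named by marker lists. Those with a median mitochondrial share over 40%, and unnamed, airway epithelial, platelet and erythroid clusters, were left out of the 10 classes; rebuilt names may differ from those of the study.

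UMIs were summed per class and library. The log2 ratio of CF-KI over control used CPM, with conditional exact intervals (scipy 1.17.1); ratios were counted where both libraries together had at least 50 UMIs, medians add 0.5 UMI, and 1.5-fold is the call. Free RNA in a class is the median, over markers of other classes with at least 100 UMIs, of class CPM over library CPM, and it assumes that free RNA has the make-up of the whole library. TMM (edgeR 4.0.16) and median-of-ratios (DESeq2 1.42.0, R 4.3.3) were used for scaling only. The code for ratios and their intervals was tested on simulated Poisson counts, and the clustering and naming of classes were not tested in this way. Named pathway genes are those with the highest ratio, the lowest ratio and the highest level per list and class (1 of them is not reported here); the most alike genes had at least 200 UMIs over all classes and used log2(CPM + 1). Positions are from GENCODE vM21. Figures used matplotlib 3.10.9. Alternatives were Leiden resolutions 0.4 and 1.5, mitochondrial limits of 5% and 20%, at least 500 genes, doublets kept, high-mitochondrial clusters kept, separate clustering, thinning to 500 UMIs, other scalings, other UMI minimums (20 and 1), and free RNA subtracted.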

Additional observations from a re-analysis of the deposited data

Results flagged for a closer look

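For 4 genes the 2 libraries differed in opposite directions in different classes, each with a counting interval on its side of 0. The difference between the classes was not tested in any of them, and each class is 1 pair of libraries. The log2 ratio of Tgfb1, CF-KI over control, was 0.75 in cardiomyocyte-like and -0.61 in macrophage-like nuclei, which lie 1.36 apart. Tgfb2 had 0.61 in cardiomyocyte-like and -0.60 in endocardial-like nuclei, 1.21 apart. Tgfbr3 had 1.03 in macrophage-like and -0.31 in fibroblast-like nuclei, 1.34 apart. Bmpr2 had 0.49 in macrophage-like and -0.37 in endocardial-like nuclei, 0.863 apart. The level of Tgfbr3 in macrophage-like nuclei was that of free RNA in both libraries (52.6 against 48.2 CPM in CF-KI, 25.7 against 25.0 CPM in the control). With free RNA subtracted, Tgfb1 was 0.042 in cardiomyocyte-like nuclei and -0.16 in macrophage-like nuclei, Bmpr2 was 0.0055 in endocardial-like nuclei and Tgfbr3 -0.08 in fibroblast-like nuclei. For Tgfb2 the values were then 0.69 and -0.98, and -0.05 in endocardial-like nuclei thinned to 500 UMIs.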

How the results depend on the processing

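Of 5 summary values (the median ratio of the members in 4 classes and the number of genes with the same highest class), 65 values under alternatives stayed within their limits and 1 moved: the macrophage-like median was -0.72 at a mitochondrial limit of 5%, over the 4 members still measured there, against 0.087. Of 646 values of the 54 single ratios, 585 stayed, 51 moved and 10 changed sign. The 5% limit, which leaves 53 CF-KI fibroblast-like, 29 endocardial-like, 28 macrophage-like and 24 pericyte-like nuclei, gave 24 of the moved values and 6 of the sign changes: Tgfbr3 0.022 and Ltbp1 0.37 in fibroblast-like, Tgfb2 0.74, Bmp4 0.38 and Bmpr2 0.20 in endocardial-like, and Tgfbr3 -0.40 in pericyte-like nuclei. Subtracting free RNA gave 15 moved values and 4 sign changes: Tgfbr2 -1.19 and Bmpr2 -0.15 in cardiomyocyte-like, Bmp4 0.088 in fibroblast-like and Bmpr2 0.0055 in endocardial-like nuclei. The cause was not tested for any of these. Tgfb2 in cardiomyocyte-like nuclei lay between 0.41 and 0.69 under every alternative run. TMM moved ratios by -0.16 in cardiomyocyte-like, -0.47 in atrial cardiomyocyte-like, -0.20 in pericyte-like and -0.12 in adipocyte-like nuclei. Median-of-ratios moved them by -0.20 in cardiomyocyte-like, -0.47 in atrial cardiomyocyte-like, -0.18 in pericyte-like and -0.14 in adipocyte-like nuclei. It moved them by 0.11 in endothelial-like and lymphatic endothelial-like nuclei. No paired analysis was possible because the groups share only 1 replicate number. Depth limits the lymphatic, pericyte, adipocyte and atrial classes, where few members had 50 UMIs, and high free RNA limits low levels in CF-KI.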

Other observations

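A ligand and a receptor of the same superfamily were read mainly in 1 class each; both were chosen after their values were seen, and neither was used in the clustering or the marker lists. Bmp10, a heart BMP ligand, had 454 CPM (306 to 648; 30 UMIs) in CF-KI atrial cardiomyocyte-like nuclei against 306 CPM (231 to 397; 56 UMIs) in those of the control. Elsewhere it reached at most 13.3 CPM in CF-KI (2 UMIs, lymphatic endothelial-like) and 11.1 CPM in the control (12 UMIs, endothelial-like). Acvr1c, the type I receptor ALK7, had 191 CPM (29 UMIs) in CF-KI adipocyte-like nuclei against 573 CPM (192 UMIs) in the control, and at most 10.9 CPM in any other class.

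Members were also read in clusters outside the 10 classes. In the platelet cluster (96 CF-KI and 10 control nuclei) Tgfb1 had 11 and 4 UMIs, or 132 and 293 CPM. An unnamed cluster rich in lymphocyte genes had Tgfb1 at 75.7 and 151 CPM and Tgfbr2 at 210.2 and 151 CPM in CF-KI and the control. Barcodes with cardiomyocyte genes and a median mitochondrial share of 64.0% had Tgfbr2 at 87.9 and 26.0 CPM from 92 and 8 UMIs (log2 ratio 1.76, 0.72 to 3.01). The cardiomyocyte-like class had 20.1 and 14.1 CPM. This ratio was the highest of the 10 genes in these barcodes. No free RNA level was estimated for them, and its part was not tested.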
